A study of Rattus norvegicus with 6 samples.

Results

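Complex I (NADH:ubiquinone oxidoreductase) genes were described in H9c2 cells, a rat cardiomyoblast line, after depletion of the long non-coding RNA Tug1. The genes were all entries of the deposited count table whose symbol begins with Nduf, the prefix of nuclear-encoded complex I genes. There were 50 such genes among 40456. They comprised 37 subunits, 8 assembly factors named Ndufaf, the complex IV subunit Ndufa4 with its paralogue Ndufa4l2, and 3 entries named as copies or pseudogenes (Ndufa10l1, Ndufa13-ps1 and Ndufb4l1-ps1). The edgeR expression filter kept 46 of them: every subunit, every Ndufaf factor and Ndufa4.

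Every library came from wild-type H9c2 (2-1) cells. They had been differentiated for 5 days under reduced serum and retinoic acid (1 µM), and were harvested after 24 h of transfection with an antisense gapmer at 25 nM. Such gapmers are short oligonucleotides with locked nucleic acid ends, and an RNA paired with one is cleaved by RNase H. In 3 libraries the gapmer was the negative control and in 3 it was directed against Tug1. Both groups therefore shared the line, the retinoic acid, the lipid transfection and the gapmer chemistry, and a single gapmer sequence stood for the knockdown. The labels do not say whether replicates were separate cultures, so p-values measure only the spread between these libraries, which may be technical. The gapmers are shown 5′ to 3′ because the groups are defined by them.
Tug1 gapmer: attcagtagacagcta
Negative control gapmer: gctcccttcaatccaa

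Complex I takes electrons from NADH, passes them along a chain of iron-sulphur clusters to ubiquinone, and pumps protons across the inner mitochondrial membrane. It is L-shaped. The peripheral arm in the matrix oxidises NADH and reduces ubiquinone, and the membrane arm pumps protons. Core subunits carry out the chemistry, accessory subunits surround and stabilise them, and assembly factors bind intermediates without staying in the finished enzyme. The core subunits of the membrane arm are encoded by mitochondrial DNA and were not analysed here. Heart and muscle depend heavily on this enzyme for oxidative ATP production.

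Library totals ran from 12978548 to 13544337 counts. For Tug1 itself the controls gave 713, 672 and 718 counts and the knockdown libraries 164, 152 and 165, so the values follow the labels. The labels call the cells cardiomyocytes, but of 10 cardiomyocyte markers Myh6, Myh7 and Ryr2 had at most 3 counts in any library, and 5 were too low to test. The 5 that were tested included 4 that rose, and the summed level of the 10 was 510 to 559 CPM in controls and 681 to 713 CPM after knockdown. Of 7 skeletal myotube markers 6 rose and 1 fell, Myod1 (-0.32). The summed level of the 7 was 886 to 892 CPM in controls and 1319 to 1397 CPM after knockdown. The summed level of 5 fibroblast markers was 36815 to 38500 CPM in controls and 31987 to 34648 CPM after knockdown. That sum is mostly the collagens Col1a1, which fell (-0.23), and Col1a2, which did not pass (-0.08). Of the 4 fibroblast markers tested 1 rose, Dcn (0.57), and 1 fell. Of 3 endothelial markers none exceeded 3 counts in a library, and of 3 macrophage markers Ptprc and Adgre1 were at 0. The third, the lysosomal protein gene Cd68, rose by a log2 fold change of 1.09 (edgeR adjusted p 2.41e-05), and the summed level of the list was 2.84 to 4.72 CPM in controls and 6.38 to 8.65 CPM after knockdown. Of 3 smooth muscle markers 2 rose and Cnn1 (-0.02) did not pass. The summed level of the 3 was 617 to 682 CPM in controls and 750 to 879 CPM after knockdown. Rises and falls of markers are calls by the rule given in the next paragraph. By that rule 30.8% of all tested genes were higher and 30.9% lower. These marker levels moved with the same groups as the complex I genes below, and their part in those results was not tested. In bulk RNA, a change in the number of cells of a type and a change in RNA per cell cannot be told apart.

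Complex I subunit transcripts that passed the test after Tug1 knockdown were mostly higher, by modest amounts, and nearly as many subunits did not pass. Of 37 subunits, 18 were higher, 2 were lower and 17 did not pass. Calls were made at 0.05 after Benjamini-Hochberg adjustment over all tested genes of the p-values of edgeR's quasi-likelihood model. Of all 14216 tested genes 61.7% passed, 30.8% as higher and 30.9% as lower. The called share of the subunits (54.1%) was below that background, and its split differed from it, with 48.6% called higher and 5.41% called lower. The median log2 fold change (Tug1 gapmer over control gapmer) of the subunits was 0.15, against 0.00 for all tested genes. The 18 subunits that rose had log2 fold changes from 0.17 to 0.70, with a median of 0.30. Of the 8 Ndufaf factors, 2 were higher, 1 was lower and 5 did not pass, with a median of -0.00. The groups' libraries did not overlap for 19 subunits with knockdown higher and 1 with knockdown lower. Of all tested genes 65.6% were apart, 33.0% with knockdown higher and 32.6% with knockdown lower.

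**Figure D1:**
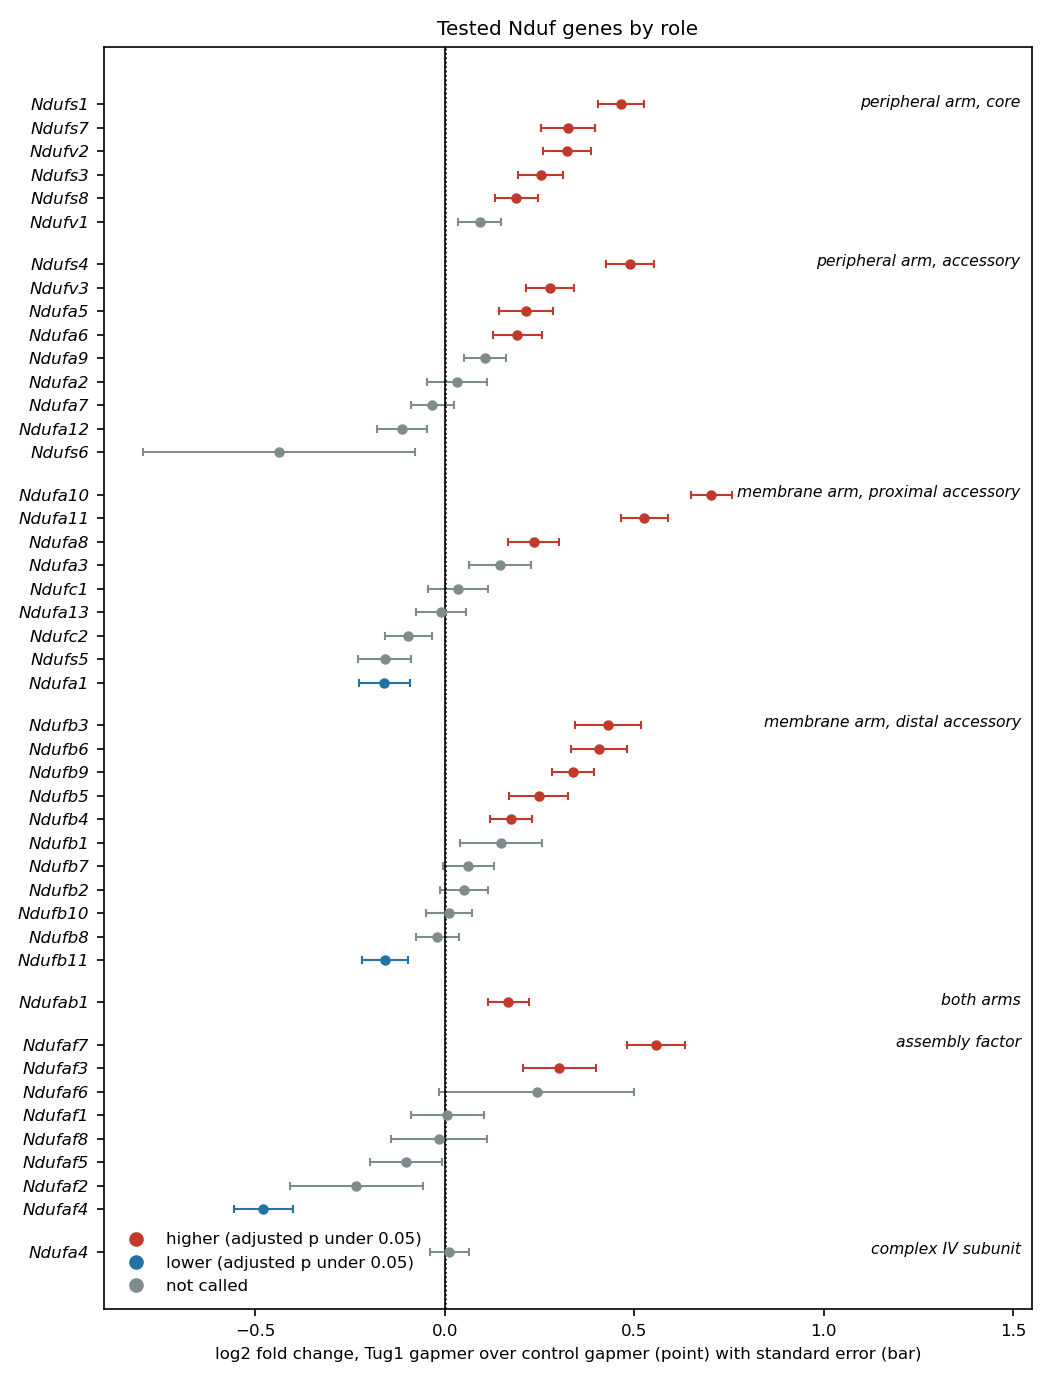
Log2 fold change of 45 tested Nduf genes (point, x axis, Tug1 gapmer over control gapmer) with its standard error (bar), grouped by role (3 libraries per group). The dotted line is the median of all tested genes. Red marks the 18 subunits and 2 Ndufaf factors called higher, and blue the 2 subunits and 1 factor called lower.

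Levels below are CPM on the TMM scale, given in the order of replicates 1 to 3. They are comparable between libraries but not between genes, since transcript lengths were not used. The core subunits of the peripheral arm came first. Ndufs1, which carries iron-sulphur clusters of the NADH-oxidising module, had 89.4, 76.2 and 89.8 CPM in controls and 122, 115 and 115 CPM after knockdown. All knockdown libraries lay above all controls, and the log2 fold change of 0.47 ± 0.0608 (SE) had an edgeR adjusted p of 6.07e-07. Its module partner Ndufv2, an iron-sulphur protein, had 60.7, 55.0 and 57.9 CPM in controls and 77.8, 72.6 and 66.7 CPM after knockdown (log2 fold change 0.32 ± 0.0637 SE, adjusted p by edgeR 0.000133). Ndufv1, which binds FMN and NADH, had 135, 146 and 135 CPM in controls and 157, 150 and 136 CPM after knockdown. Its groups overlapped, and the log2 fold change of 0.09 (SE 0.0555) did not pass (edgeR adjusted p 0.158). Without knockdown replicate 3 it passed at 0.15 (edgeR adjusted p 0.0306), and likewise with library totals (0.14) and with the length offset described below (0.23, edgeR adjusted p 0.000483).

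Toward the ubiquinone site, Ndufs7, which holds the last iron-sulphur cluster before ubiquinone, had 49.0, 47.9 and 42.1 CPM in controls and 60.2, 61.5 and 52.6 CPM after knockdown, a log2 fold change of 0.33 (SE 0.0714). Ndufs8, another iron-sulphur subunit, had 63.4, 62.6 and 58.5 CPM in controls and 70.3, 70.6 and 69.4 CPM after knockdown, a log2 fold change of 0.19 (SE 0.0567). Ndufs3 had 53.8, 58.7 and 58.4 CPM in controls and 70.2, 68.6 and 64.7 CPM after knockdown, a log2 fold change of 0.25 (SE 0.0596). In these 3 genes every knockdown library was above every control, with edgeR adjusted p-values of 0.000398, 0.00597 and 0.000816 respectively. In all, 5 of 7 nuclear core subunits rose and 2 did not pass, with a group median of 0.25. The called share was 71.4%, all higher, against 61.7% of all tested genes (30.8% higher, 30.9% lower).

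Among the 9 accessory subunits of the peripheral arm, 4 rose and 5 did not pass. Their called share was 44.4%, all higher, against 61.7% of all tested genes (30.8% higher, 30.9% lower). Ndufs4, whose loss destabilises the NADH-oxidising module and causes Leigh syndrome in humans, had 40.0, 38.2 and 40.9 CPM in controls and 58.3, 55.3 and 53.6 CPM after knockdown. Its log2 fold change reached 0.49 ± 0.0635 (SE) at an edgeR adjusted p of 5.55e-07, and its groups were well apart. Ndufv3, a small subunit of the same module, had 60.2, 55.9 and 66.6 CPM in controls and 76.0, 72.3 and 73.1 CPM after knockdown, a log2 fold change of 0.28 (SE 0.063). Ndufa5 had 41.6, 39.4 and 43.7 CPM in controls and 52.8, 44.8 and 47.0 CPM after knockdown, a log2 fold change of 0.21 (SE 0.0711). The knockdown values of Ndufa5 came close to the controls, and its call was lost without control replicate 2 (0.17, edgeR adjusted p 0.067) and without knockdown replicate 1 (0.14, edgeR adjusted p 0.106). Ndufa6, which docks the acyl carrier protein, rose by a log2 fold change of 0.19 and lost its call without control replicate 3 (0.13, edgeR adjusted p 0.0955) and without knockdown replicate 1 (0.15, edgeR adjusted p 0.0759). Ndufa9 (0.11), Ndufa2 (0.03), Ndufa7 (-0.03) and Ndufa12 (-0.11) did not pass. Ndufa9 passed without control replicate 3 (0.14, edgeR adjusted p 0.048) and with library totals (0.16).

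The Ndufs6 entry stood apart by its level, with only 15, 17 and 11 counts in controls and 13, 13 and 7 counts after knockdown. In the RefSeq gene table of assembly GRCr8, the name belongs to a coding gene and is also an older name of the pseudogene Ndufs6-ps1. The authors' annotation is not given in the sources used here, so which of these was counted is uncertain. Its log2 fold change of -0.44 (SE 0.358) did not pass. Without this entry the subunits kept 18 higher and 2 lower calls among 36, and their median was 0.16.

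On the membrane arm, the 9 proximal accessory subunits held the largest subunit change. Ndufa10, an accessory subunit with a nucleoside kinase-like fold, had 64.7, 66.0 and 69.9 CPM in controls and 111, 109 and 107 CPM after knockdown. The lowest knockdown library was far above the highest control, and the rise was 1.63-fold (log2 fold change 0.70 ± 0.0543 SE, adjusted p by edgeR 1.43e-10). Its copy Ndufa10l1 had 3 to 8 counts per library and was not tested. In the GRCr8 gene table the name Ndufa10 is also an older name of Ndufa10l1. The count table holds both names as separate entries, but without the authors' annotation the gene counted as Ndufa10, and so its span, rests on the name. Ndufa11, a membrane subunit, had 48.1, 46.7 and 47.5 CPM in controls and 73.2, 65.7 and 66.1 CPM after knockdown, a log2 fold change of 0.53 ± 0.0612 (SE), with an edgeR adjusted p of 1.06e-07. Ndufa8 of the intermembrane space side had 54.5, 55.0 and 50.0 CPM in controls and 65.2, 66.0 and 56.4 CPM after knockdown, a log2 fold change of 0.23 (SE 0.0668). In Ndufa8, knockdown replicate 3 lay just above the controls while the other two knockdown libraries were well above.

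Not every proximal subunit followed. Ndufa1, a small membrane-spanning subunit, had 58.2, 63.0 and 63.4 CPM in controls and 59.7, 55.7 and 49.8 CPM after knockdown. Its groups overlapped, and it was called lower at -0.16 ± 0.0668 (SE), with an edgeR adjusted p of 0.0424. That call was lost without control replicate 2 (-0.14), control replicate 3 (-0.14), knockdown replicate 2 (-0.17) or knockdown replicate 3 (-0.09), and when libraries were scaled by their totals (-0.11). The DESeq2 Wald test did not call Ndufa1 either (-0.16, DESeq2 adjusted p 0.0773). Ndufs5 lay just outside the threshold at -0.16 (edgeR adjusted p 0.0529), and passed without knockdown replicate 1 (-0.22, edgeR adjusted p 0.0178). With DESeq2 size factors it also passed (-0.16, edgeR adjusted p 0.0486). Ndufa3 (0.14), Ndufc1 (0.03), Ndufa13 (-0.01) and Ndufc2 (-0.10) did not pass, although the knockdown libraries of Ndufa3 were all above its controls.

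Of the 11 distal accessory subunits, 5 rose, 1 fell and 5 did not pass. Their called share was 54.5% (45.5% higher, 9.09% lower), against 61.7% of all tested genes (30.8% higher, 30.9% lower). Ndufb9 had 100, 97.0 and 101 CPM in controls and 134, 126 and 117 CPM after knockdown, a log2 fold change of 0.34 (SE 0.0555). Ndufb6 had 39.8, 34.2 and 35.7 CPM in controls and 49.4, 51.6 and 44.4 CPM after knockdown, a log2 fold change of 0.41 (SE 0.0737). Ndufb3 had 25.8, 23.7 and 28.9 CPM in controls and 38.4, 35.7 and 31.5 CPM after knockdown, a log2 fold change of 0.43 (SE 0.0868). All 3 are small subunits of the distal membrane arm, their groups did not overlap, and knockdown replicate 3 was the lowest of the knockdown libraries in each. Their edgeR adjusted p-values were 1.43e-05, 5.01e-05 and 0.00017.

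Smaller distal rises were those of Ndufb5 and Ndufb4. Ndufb5 had 32.1, 30.9 and 27.5 CPM in controls and 37.9, 36.2 and 33.3 CPM after knockdown, a log2 fold change of 0.25 that did not pass without control replicate 3 (0.19, edgeR adjusted p 0.056). Ndufb4 had 72.7, 75.2 and 75.5 CPM in controls and 82.3, 89.2 and 80.7 CPM after knockdown, a log2 fold change of 0.17 that did not pass without control replicate 1 (0.16, edgeR adjusted p 0.0553) or knockdown replicate 2 (0.13, edgeR adjusted p 0.069). The GRCr8 table names 11 copies of Ndufb4, more than of any other member, and how reads shared with copies were counted is not given in the sources used here. Ndufb11 fell, with 79.7, 76.4 and 82.2 CPM in controls and 74.5, 73.8 and 65.3 CPM after knockdown. The groups did not overlap, and the log2 fold change reached -0.16 ± 0.0603 (SE) at an edgeR adjusted p of 0.0268. The call of Ndufb11 was lost without control replicate 1 (-0.16), control replicate 3 (-0.13) or knockdown replicate 3 (-0.10), and with library totals (-0.11). Both subunits called lower, Ndufa1 and Ndufb11, are encoded on the X chromosome in mammals, a remark made with their calls known. Both are also short genes (3.65 and 2.26 kb) and lost their calls with the length offset described below. X-linked genes as a set were not examined, and neither trait was tested. Ndufb1 (0.15), Ndufb7 (0.06), Ndufb2 (0.05), Ndufb10 (0.01) and Ndufb8 (-0.02) did not pass, and Ndufb1 passed without knockdown replicate 3 (0.26, edgeR adjusted p 0.0428).

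Ndufab1, the mitochondrial acyl carrier protein, sits on both arms and also serves fatty acid synthesis. It had 74.6, 73.2 and 79.3 CPM in controls and 85.0, 85.1 and 85.0 CPM after knockdown, a log2 fold change of 0.17 ± 0.0544 (SE), with an edgeR adjusted p of 0.0103. The call was lost without control replicate 1 (0.16, edgeR adjusted p 0.0515). By arm, 9 of 16 peripheral subunits rose and 0 fell (median 0.19), and 8 of 20 membrane subunits rose and 2 fell (median 0.10). The shares over all tested genes were 30.8% higher and 30.9% lower. With the length offset described below, 11 of 16 peripheral and 15 of 20 membrane subunits were higher (medians 0.30 and 0.23). In neither arm was a subunit then called lower. No test was made of the difference between arms.

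**Figure D2:**
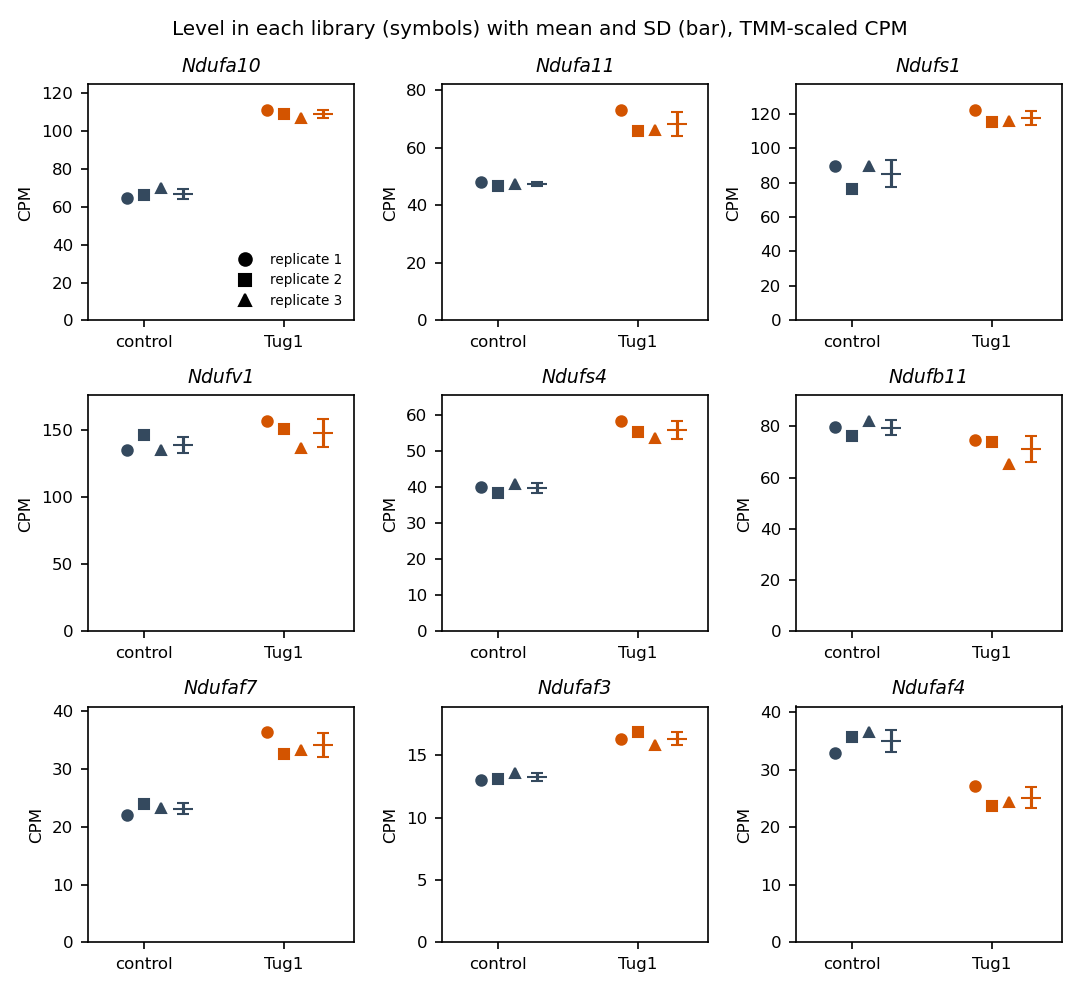
CPM (TMM scale, y axis from 0) of 9 genes in each of the 6 libraries, with symbols for replicates and a bar for mean and SD of 3 libraries per group. Ndufa10, Ndufa11, Ndufs1, Ndufs4, Ndufaf7 and Ndufaf3 are higher and Ndufb11 and Ndufaf4 lower in every knockdown library than in every control, while the groups of Ndufv1 overlap.

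Among the Ndufaf factors 3 of 8 passed (37.5%, against 61.7% of all tested genes), 2 as higher and 1 as lower. Ndufaf7, a methyltransferase that acts early in assembly, had 22.1, 24.0 and 23.3 CPM in controls and 36.4, 32.5 and 33.2 CPM after knockdown. Every knockdown library was above every control, and the rise was 1.47-fold (log2 fold change 0.56 ± 0.0777 SE, adjusted p by edgeR 1.58e-06). Ndufaf3 and Ndufaf4 encode proteins that bind each other on the ubiquinone-module intermediate. Ndufaf3 had 13.0, 13.1 and 13.6 CPM in controls and 16.3, 16.9 and 15.8 CPM after knockdown, a log2 fold change of 0.30 ± 0.0969 (SE), with an edgeR adjusted p of 0.00945. Ndufaf4 had 32.9, 35.6 and 36.6 CPM in controls and 27.2, 23.7 and 24.4 CPM after knockdown, a log2 fold change of -0.48 ± 0.0783 (SE), with an edgeR adjusted p of 1.35e-05. These partner transcripts thus went opposite ways, with no overlap between groups for either. The ratio of Ndufaf3 to Ndufaf4 counts was 0.396, 0.367 and 0.371 in controls and 0.600, 0.710 and 0.647 after knockdown (exact two-sided permutation test, p = 0.1, the smallest that 3 against 3 libraries can give). This pair was chosen after its values were seen. With Ndufaf3 higher and Ndufaf4 lower in every knockdown library, the ratio had to separate the groups. The p-value was thus fixed by the choice and adds no support. The GRCr8 table names 5 copies of Ndufaf4.

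The other 5 factors did not pass, and each had overlapping groups. Ndufaf1, which acts on the membrane arm, had 18.3, 16.5 and 19.3 CPM in controls and 19.5, 16.3 and 18.5 CPM after knockdown (log2 fold change 0.01, SE 0.0969). Ndufaf5, which hydroxylates an arginine of Ndufs7, had 19.1, 17.3 and 19.7 CPM in controls and 18.2, 18.3 and 15.8 CPM after knockdown (-0.10, SE 0.0949). Its stabilising partner Ndufaf8 had 8.82, 10.7 and 11.0 CPM in controls and 8.92, 11.0 and 10.2 CPM after knockdown (-0.02, SE 0.127). None of these 3 shows a shift between the groups beyond the spread of the libraries. Ndufaf2, a paralogue of the subunit Ndufa12, had 6.75, 5.26 and 6.32 CPM in controls and 6.52, 4.88 and 4.15 CPM after knockdown (-0.23, SE 0.175). It passed as lower without knockdown replicate 1 (-0.43, edgeR adjusted p 0.0497). Ndufaf6 had 1.76, 2.71 and 2.08 CPM in controls and 3.19, 2.66 and 1.89 CPM after knockdown (0.24, SE 0.258). Ndufaf6 had 23 to 44 counts per library, and its knockdown libraries spread more widely than its controls.

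Ndufa4 carries the Nduf prefix but is a subunit of complex IV. It had 163, 147 and 156 CPM in controls and 161, 158 and 150 CPM after knockdown, with a log2 fold change of 0.01 ± 0.0516 (SE) and an edgeR adjusted p of 0.855. With the length offset described below it was called higher (0.12, edgeR adjusted p 0.0391). Ndufa4l2, its hypoxia-inducible paralogue, had 0.460, 0.464 and 0.771 CPM in controls and 0.145, 0.666 and 0.680 CPM after knockdown. These are 2 to 10 counts per library, and it was not tested, nor were Ndufa13-ps1 (7 to 10 counts) and Ndufb4l1-ps1 (0 counts in every library).

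Summed over the 37 subunits, the level was 2291, 2254 and 2295 CPM in controls and 2652, 2567 and 2401 CPM after knockdown. The groups did not overlap, and the mean was 11.4% higher after knockdown. Knockdown replicate 3 was the lowest of the knockdown libraries for 30 of 37 subunits, and replicate 1 was the highest for 25. Without knockdown replicate 3, 20 subunits were called higher and 0 lower. Without knockdown replicate 1, 16 were called higher and 3 lower, and the median fell from 0.15 to 0.11. Calls over all tested genes changed as well, to between 8128 and 8410 with 1 library left out, against 8773 with all 6 libraries. The 8 Ndufaf factors summed to 123, 125 and 132 CPM in controls and 136, 126 and 124 CPM after knockdown, so their groups overlapped.

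**Figure D3:**
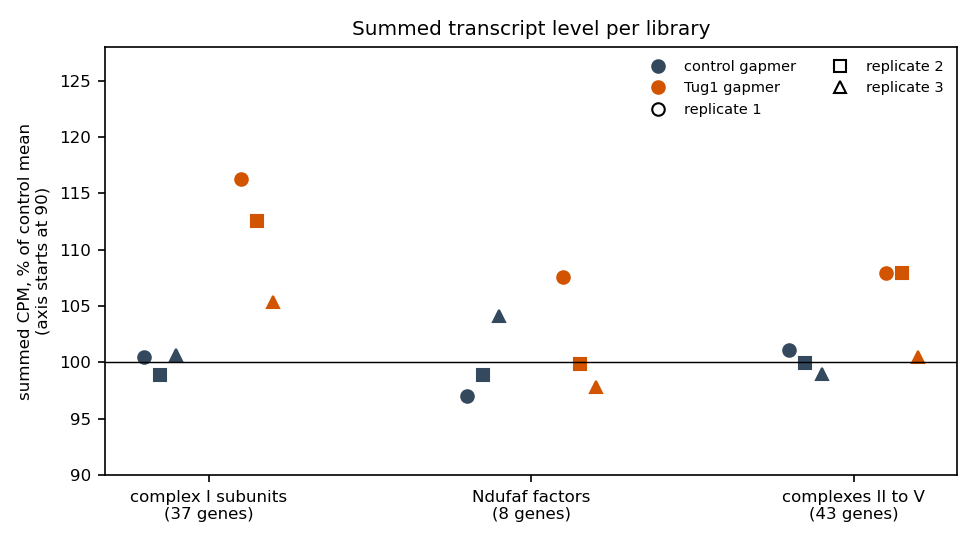
Summed CPM per library as a percentage of the control mean (y axis starting at 90), for complex I subunits, Ndufaf factors and nuclear subunits of complexes II to V. All 3 knockdown libraries lie above the controls for the subunits, replicate 3 least, and overlap them for the factors.

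Complex I assembly factors without the prefix were compared next, as the remaining genes of the same process. Of 11 tested, 3 rose, 2 fell and 6 did not pass, with a median log2 fold change of 0.01. The called share was 45.5%, against 61.7% of all tested genes. Foxred1, an oxidoreductase-like factor, rose from 19.1 ± 1.80 to 29.5 ± 1.54 CPM (SD, n = 3, log2 fold change 0.62, SE 0.086). Timmdc1, which acts on the membrane arm, rose from 23.9 ± 0.791 to 32.3 ± 0.693 CPM (SD, n = 3, log2 fold change 0.44, SE 0.0746). Nubpl, which delivers iron-sulphur clusters to complex I, rose from 4.37 ± 0.585 to 7.34 ± 0.303 CPM (SD, n = 3, log2 fold change 0.75, SE 0.156). In all 3 genes every knockdown library was above every control. The 2 that fell were Pyurf (-0.24) and Tmem126a (-0.23), named after their values were seen. With the length offset described below Foxred1, Timmdc1 and Nubpl stayed higher, at 0.61, 0.44 and 0.42, while Pyurf (-0.07, edgeR adjusted p 0.349) and Tmem126a (-0.11, edgeR adjusted p 0.241) lost their calls.

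Nuclear subunits of complexes II to V were set beside complex I as the most similar genes. Of 41 tested, 16 were higher and 6 lower, with a median of 0.05. Their called share was 53.7% (39.0% higher, 14.6% lower), against 61.7% of all tested genes (30.8% higher, 30.9% lower). All 4 complex II subunits rose, among them Sdhd (0.36), Sdhc (0.33) and Sdhb (0.25). In complex III, 2 of 9 rose and 1 fell, including Uqcrq (-0.27), Cyc1 (0.16) and Uqcrb (0.15). The call of Uqcrb was lost without control replicate 2 (0.13), control replicate 3 (0.14) or knockdown replicate 1 (0.11). In complex IV, 3 of 12 rose and 2 fell, including Cox8b (0.73), Cox8a (0.44) and Cox5a (-0.27). In complex V, 7 of 16 rose and 3 fell, including Atp5f1c (0.44), Atp5f1e (-0.23) and Atp5mf (-0.24). The summed level was 7238, 7158 and 7085 CPM in controls and 7726, 7730 and 7192 CPM after knockdown. The groups overlapped, and knockdown replicate 3 was again the lowest of its group. The difference between complex I and the other complexes was not tested.

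Gene length moved with these results. Tested genes with a genomic span under 10 kb had a median log2 fold change of -0.15 (3493 genes), those from 10 to 30 kb -0.04 (4291 genes) and those of 30 kb or more 0.16 (5300 genes). Complex I subunits are mostly short genes, from 2.09 to 110 kb, with a median of 7.18 kb against 22.4 kb for all tested genes. The 25 subunits under 10 kb had a median of 0.09 with 10 higher and 2 lower, and the 3 of 30 kb or more (Ndufa10, Ndufs1 and Ndufs4) were all higher. Across the 37 subunits the log2 fold change correlated with log2 span at r = 0.42 (Spearman's rho 0.39), a description across genes that share the same 6 libraries and are not independent replicates.

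With an offset that removed the length trend from each library, 27 subunits were called higher and 0 lower, against 30.3% and 31.8% of the 13084 genes with a span. The 18 subunits called higher stayed higher and 9 more joined them. These were Ndufa3 (0.33), Ndufb1 (0.25), Ndufa2 (0.23), Ndufv1 (0.23), Ndufb7 (0.21), Ndufb10 (0.21), Ndufc1 (0.20), Ndufb2 (0.16) and Ndufb8 (0.12), with edgeR adjusted p-values from 0.000483 to 0.049. Ndufa1 (0.01) and Ndufb11 (0.04) lost their calls, and the median rose from 0.15 to 0.25. The correlation with span was then 0.07. The long gene Ndufs4 moved down, from 0.49 to 0.28, and the short genes moved up, Ndufa11 from 0.53 to 0.68 and Ndufaf3 from 0.30 to 0.51. Ndufaf4 stayed lower at -0.34, and Ndufaf2, whose gene is as long as that of Ndufs4, was called lower at -0.44. Complexes II to V shifted too, from 16 to 24 higher and from 6 to 4 lower of 41, and their median went from 0.05 to 0.17. In complex V 10 were then higher and 1 lower, and Atp5f1e lost its call (-0.05, edgeR adjusted p 0.45). What part of the length trend belongs to the knockdown was not tested.

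**Figure D4:**
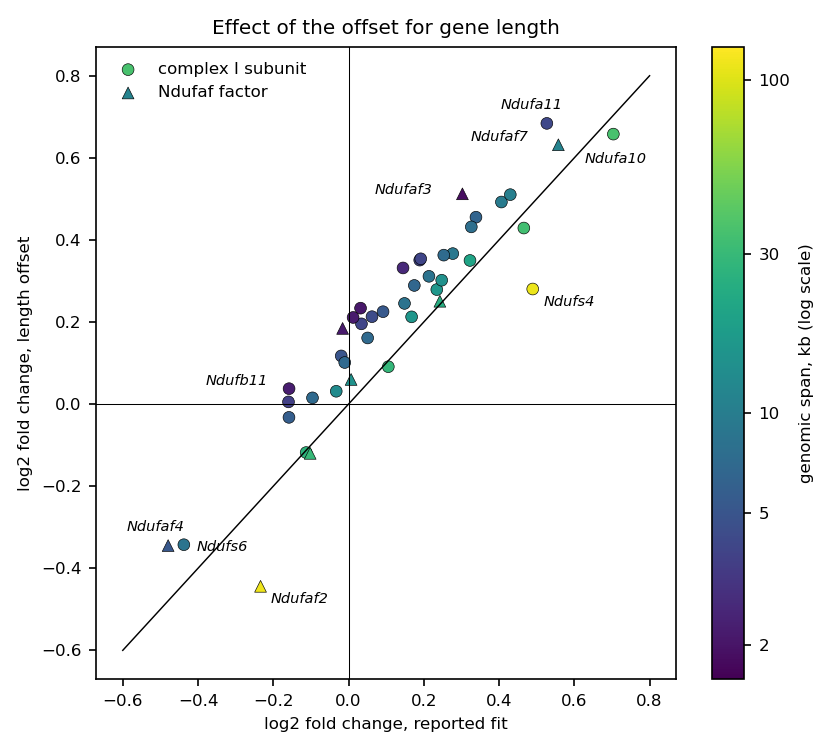
Log2 fold change of 36 subunits (circles) and the 8 Ndufaf factors (triangles) in the reported fit (x axis) and with the length offset (y axis), coloured by genomic span in kb on a log scale. The shortest genes lie above the line of equality and the longest below it. Ndufs4 moves from 0.49 to 0.28 and Ndufa11 from 0.53 to 0.68.

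The members' promoters were searched for 4 textbook motifs of respiratory chain genes, on both strands. RefSeq promoter windows of GRCr8, from 250 bases before to 50 bases after the start, matched 43 of 50 members by symbol. The NRF1 motif, whose 10 letters are the capitals in the first 3 sequences printed below, was found in 3 windows (6.98%), against 1.88% of the 10529 tested genes with a window. The YY1 motif AAGATGGC was found in 10 (23.3% against 5.58%), the ETS motif CCGGAAG of GABP in 9 (20.9% against 17.5%), and the ERR motif AAGGTCA in 4 (9.30% against 2.77%). The YY1 letters contain an ATG, and 9 of their 10 matches began 3 to 27 bases after the start, so a match may also be a start codon. Among members with a window, 18 were called higher, 3 lower and 21 were not called. YY1 matches were in 3 of these 18 higher, 0 of 3 lower and 6 of 21 not called members. The remaining YY1 match was in Ndufa4l2, which was not tested. ETS matches were in 3 of 18 higher, 1 of 3 lower and 5 of 21 not called members. ERR matches were in 1 of 18 higher, 0 of 3 lower and 3 of 21 not called members.

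The NRF1 matches are printed because the same 10 letters stood before a gene that rose, a gene that fell and a gene that did not pass. Capitals mark the motif, and each sequence is a stretch around it on the gene's own strand, before the start.
Ndufa11, chr9:1637487-1637546, + strand (log2 fold change 0.53): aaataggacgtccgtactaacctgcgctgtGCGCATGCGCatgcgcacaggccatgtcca
Ndufaf4, chr5:43401607-43401666, + strand (log2 fold change -0.48): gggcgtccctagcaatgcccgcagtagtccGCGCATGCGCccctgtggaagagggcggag
Ndufaf5, chr3:147961567-147961611, + strand (log2 fold change -0.10): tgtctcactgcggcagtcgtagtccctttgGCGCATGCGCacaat
The motif began at position -97 in Ndufa11, -158 in Ndufaf4 and -15 in Ndufaf5 relative to the start, and Ndufa11 held a further match at -91 that overlaps it. An ETS match lay in the window of Ndufs1, printed as the core subunit with the largest rise. It is on the opposite strand, so the capitals are the reverse complement of the motif.
Ndufs1, chr9:72073778-72073834, - strand (log2 fold change 0.47): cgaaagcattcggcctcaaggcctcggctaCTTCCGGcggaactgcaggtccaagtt
A match describes the letters only and does not show that a factor binds there.

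Some members share sequence or genome space with other entries. RefSeq names copies for 24 of the 50 members, 12 of them among the 23 called. The annotated spans of 17 members overlap another gene, 7 of them called, including Ndufb9 with Tatdn1, Ndufs3 with Kbtbd4, Ndufb5 with Mrpl47 and Ndufaf3 with Impdh2. The libraries were stranded per the labels' protocols, but use of strand in counting is not given in the sources used here, so reads of such pairs may not be separable.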

How the data were processed

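The 6 libraries were stranded poly-A libraries made from 500 ng of total RNA with an RNA integrity number of 9 or higher, per the labels' protocols. The authors deposited raw whole-number counts per gene and library. FastQC 0.11.7, fastp 0.14.1 and STAR 2.5 are named in the submitters' processing notes; counting tool, build and annotation are not given in the sources used here. Counts were analysed with R 4.3.3 and edgeR 4.0.16. The expression filter used a minimum count of 10 and a minimum total of 15. TMM factors were 0.979 to 0.986 in controls and 1.01 to 1.02 after knockdown, so they differed by group. The quasi-likelihood test was two-sided, on all 6 libraries without a block. Benjamini-Hochberg adjustment was over 14216 genes, with a threshold of 0.05. A limit of 3 counts was 0.217 to 0.232 CPM and covers counting error only. Alternatives used DESeq2 1.42.0 and limma 3.58.1 (voom), other scalings and filters, a threshold of 0.01, the replicate number as a block, a length offset (lowess span 0.3 on log2 genomic span from the GRCr8 gene table) and each library left out. Scripts were tested on simulated data. Members and lists were chosen with earlier results of these data known, and motifs and the ratio after values were seen. Values in every library were printed by rule for Tug1, the nuclear core subunits, the 12 other subunits with the smallest p, tested Ndufaf genes and Ndufa4; of other lists the 3 members with the smallest p were named. Ndufb11 and Ndufa1 were added as the subunits called lower and Ndufs6 for its level. One member's own values are not reported here, though it is counted in the totals. Coa1, Cox7a1 and Atp5mj were not matched.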

Additional observations from a re-analysis of the deposited data

How the results depend on the processing

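Of 45 tested members named, 20 kept their direction and call in each alternative run, and 25 did not. Over 719 combinations of member and alternative, 23 were weaker, 28 stronger and 36 reversed. The subunit count ran from 15 (adjusted p under 0.01) to 27 (length offset), and that of the Ndufaf factors from 3 to 4. Correlations of deviations across genes, by replicate number, were -0.00531, 0.0298 and 0.027. The counting error of each gene enters these correlations, so they cannot decide whether replicate numbers paired the libraries. With the number as a replicate block 20 subunits and 3 Ndufaf factors were called. Library totals put the median log2 fold change of complex I subunits at 0.20, with 21 subunits higher and 0 lower. They put the median log2 fold change of Ndufaf assembly factors at 0.0485, and reversed Ndufaf8 (0.037), Ndufa7 (0.020), Ndufb8 (0.033) and Ndufa13 (0.043). With this scaling the median of all tested genes also moved, from 0.0043 to 0.057, so the shift was not confined to complex I. Of all calls 55.8% were then higher, against 50.0% in the reported fit. With no filter Ndufaf1 was at -0.0039. The length offset gave medians of 0.25 (subunits) and 0.12 (Ndufaf) and 3 calls among the other assembly factors. It reversed Ndufb11 (0.038), Ndufa1 (0.0054), Ndufaf8 (0.18), Ndufc2 (0.015), Ndufa7 (0.031), Ndufb8 (0.12) and Ndufa13 (0.10). With the offset and the replicate block together these were 0.24, 0.12 and 3, and 0.038, 0.0048, 0.19, 0.015, 0.031, 0.12 and 0.10 (0.09998 unrounded for Ndufa13). With a library left out, the subunit median ran from 0.11 to 0.17 and the Ndufaf median from -0.0362 to 0.0523. Genes that changed sign in those fits, none of them called in the reported fit, ran from -0.0620 to 0.0395 (Ndufb8), -0.109 to 0.0663 (Ndufaf8), -0.0558 to 0.0778 (Ndufaf1), -0.0299 to 0.0490 (Ndufa4), -0.0223 to 0.0536 (Ndufb10), -0.0229 to 0.0924 (Ndufa2), -0.00525 to 0.0574 (Ndufc1), -0.0565 to 0.0132 (Ndufa7) and -0.0431 to 0.0582 (Ndufa13). Apart from the offset's own construction, what causes these changes was not tested. The lowest tested members were Ndufs6 and Ndufaf6, at 7 to 44 counts per library, with standard errors of 0.358 and 0.258.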
